A study of Mus musculus with 6 samples.

Results

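The E2F transcription factors and the RB pocket proteins that bind them form the switch between rest and DNA replication, and 10 of their genes were followed here: E2f1 to E2f8, Rb1 and Rbl1. They were picked by gene symbol from a table of 51912 Ensembl genes, and each symbol matched 1 row. RNA had been sequenced by Smart-Seq2, a full-length cDNA amplification for small inputs, in testis cells of C57BL/6J mice aged 4 days. Flow cytometry had picked out THY1+ and c-KIT- cells, a gate that enriches the stem cells of the male germ line. There were 3 wild type libraries and 3 Bud31-vKO libraries, in which Bud31, a protein of the spliceosome, had been deleted with Cre recombinase and loxP sites. Both groups shared strain, age and sort, and no other allele or agent is named. The labels state neither the promoter that drove Cre nor how many cells or animals went into a library, so p-values measure the spread between these libraries, which may be technical. The table heads its columns C and T with numbers 1 to 3. C was taken as wild type and T as Bud31-vKO, a reading that the labels do not spell out.

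In cycling cells the activators E2F1, E2F2 and E2F3 turn on the genes of DNA synthesis, while E2F4 and E2F5 sit on the same promoters with pocket proteins and keep them off. RB1 binds mainly the activators and RBL1 (p107) mainly E2F4 and E2F5, until cyclin-dependent kinases phosphorylate the pocket proteins and release them. E2F6 represses without a pocket protein, as part of a Polycomb complex, and E2F7 and E2F8, which bind DNA without a dimerization partner, damp the same targets late in the cycle. Several genes of the family are themselves E2F targets.

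That feedback can be looked for in the promoters. RefSeq (GRCm38.p6) held a promoter window, 250 bases before to 50 bases after the start, for 7 of the 10 genes, with 2 alternative windows each for E2f2 and E2f3. E2f4, E2f5 and Rb1 were not matched. The letters TTTGGCGC, TTTCGCGC, TTTCCCGC and TTTGGCGG, common forms of the E2F site, were searched on both strands, and the matches in these genes did not overlap one another. At least 1 of these motifs lay in a window of 4 of the 7 genes, against 2.70% of all 27025 genes with a window and 2.37% of all 32851 windows. These 4 windows are shown 5′ to 3′ as the ones with a match. E2f2, E2f3 and E2f7 varied together over the libraries. Rbl1, the pocket protein among the matches, varied less with them, at Pearson's r of 0.16, 0.11 and 0.35. The motif is in capitals.

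E2f2: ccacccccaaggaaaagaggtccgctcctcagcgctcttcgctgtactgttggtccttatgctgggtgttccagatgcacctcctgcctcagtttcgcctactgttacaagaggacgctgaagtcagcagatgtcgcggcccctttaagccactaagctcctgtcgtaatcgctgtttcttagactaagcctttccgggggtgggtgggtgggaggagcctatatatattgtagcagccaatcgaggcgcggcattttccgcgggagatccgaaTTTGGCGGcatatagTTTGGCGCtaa
E2f3: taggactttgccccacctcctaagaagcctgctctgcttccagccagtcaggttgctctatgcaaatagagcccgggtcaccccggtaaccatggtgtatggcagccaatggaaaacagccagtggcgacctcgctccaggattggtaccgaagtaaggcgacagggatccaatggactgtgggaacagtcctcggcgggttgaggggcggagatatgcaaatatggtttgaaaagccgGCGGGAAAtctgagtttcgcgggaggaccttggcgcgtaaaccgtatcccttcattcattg
E2f7: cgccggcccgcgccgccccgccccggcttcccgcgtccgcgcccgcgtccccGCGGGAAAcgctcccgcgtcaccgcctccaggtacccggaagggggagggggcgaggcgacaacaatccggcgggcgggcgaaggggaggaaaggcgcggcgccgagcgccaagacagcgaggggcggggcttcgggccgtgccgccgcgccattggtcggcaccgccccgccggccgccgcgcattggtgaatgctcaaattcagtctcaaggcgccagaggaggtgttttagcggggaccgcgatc
Rbl1: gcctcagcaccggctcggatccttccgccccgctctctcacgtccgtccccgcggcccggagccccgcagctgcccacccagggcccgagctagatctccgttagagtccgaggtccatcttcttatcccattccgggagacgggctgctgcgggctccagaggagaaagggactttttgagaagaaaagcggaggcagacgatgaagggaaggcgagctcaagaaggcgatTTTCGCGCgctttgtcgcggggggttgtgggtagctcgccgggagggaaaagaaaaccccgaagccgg

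The E2f2 window (chr4:136172024-136172323, plus strand) held TTTGGCGG from base 25 and TTTGGCGC from base 40 of the RefSeq transcript. This window ends before the start of the gene in the annotation used for positions here, 136172394. The E2f3 window (chr13:29986014-29986313, minus strand) belongs to the upstream start and held TTTCCCGC on the opposite strand, read here as GCGGGAAA, from 11 bases before the start. The E2f7 window (chr10:110745189-110745488, plus strand) held the same letters from 198 bases before the start, and the Rbl1 window (chr2:157204485-157204784, minus strand) TTTCGCGC from 18 bases before it. The downstream window of E2f2, that of E2f3 and those of E2f1, E2f6 and E2f8 held none of these exact letters. The E2f1 window (chr2:154569377-154569676, minus strand) lay wholly inside the annotated gene, whose minus-strand start is at 154569892. The bases before that start were not searched, so whether a motif lies there is not known from this search. The deposited counts are per gene, so the alternative starts of E2f2 and E2f3 were not separated.

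Libraries differed widely within each genotype, and 2 of them stood apart. Totals ran from 13240704 to 18744466 reads, and reads were found for 13762 genes in wild type library 3 and 12464 in Bud31-vKO library 2, against 18171 to 22300 in the other 4. Bud31 itself was 138, 96.8 and 158 CPM in wild type 1 to 3 against 47.2, 67.6 and 80.4 CPM in Bud31-vKO 1 to 3 (CPM, read counts relative to library size, after TMM scaling), with no overlap. Of 12 germ cell markers 11 had reads and Dppa3 was at 0, and their summed level was 3349.7 to 3968 CPM in wild type and 1729 to 2575 CPM in Bud31-vKO. The 6 stromal markers, collagens and decorin among them, summed to 10310.4 to 21649.7 CPM in wild type and 8151 to 14578 CPM in Bud31-vKO, more than the germ cell markers in each of the 6 libraries. Sertoli cell markers were highest in Bud31-vKO library 1, at 1601 CPM against 124 to 415 CPM in the other 5, and lymphocyte markers in Bud31-vKO library 2, at 742 CPM against 13.1 to 215 CPM. Lymphocyte markers were higher in Bud31-vKO without overlap, at 147 to 742 CPM against 13.1 to 140.2 CPM, and Cd8a was at 0. In such bulk libraries fewer cells of a type and less RNA per cell cannot be told apart.

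All 10 genes had enough reads to be tested, and 8 of them had lower fitted levels in Bud31-vKO. The median log2 fold change was -1.06, beside 0.02 over all 15240 genes tested. It was -0.69 without wild type library 3 and -0.60 without that library and Bud31-vKO library 2. By edgeR's quasi-likelihood test 0 of the 10 genes passed a Benjamini-Hochberg adjusted p of 5% over all genes, in a comparison where 0% of genes were called lower and 0% higher, and the adjusted p was 0.9997 for each. Bud31, the deleted gene, was not called either, with a log2 fold change of -1.01, an unadjusted p of 0.0345 and an adjusted p of 0.9997 by edgeR. Among all genes tested, 443 genes had an unadjusted p under 0.05, 278 of them lower, and DESeq2 called 47. At an unadjusted p under 0.05 there was 1 of the 10, E2f8, by edgeR and the same count by DESeq2, which called 0 of the 10 after adjustment and 0.314% of the genes it adjusted. The values of the 2 genotypes did not overlap for E2f1, E2f7 and E2f8, lower in Bud31-vKO, which is 3 of 10 against 6.39% of all genes tested. None was higher without overlap, against 4.76% of all genes. An exact two-sided permutation test of 3 libraries against 3 cannot give less than 0.1, the value these 3 genes reach. The sums of germ cell markers (lower in Bud31-vKO) and of lymphocyte markers (higher) did not overlap between genotypes either, and their part in these differences was not tested.

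**Figure D1:**
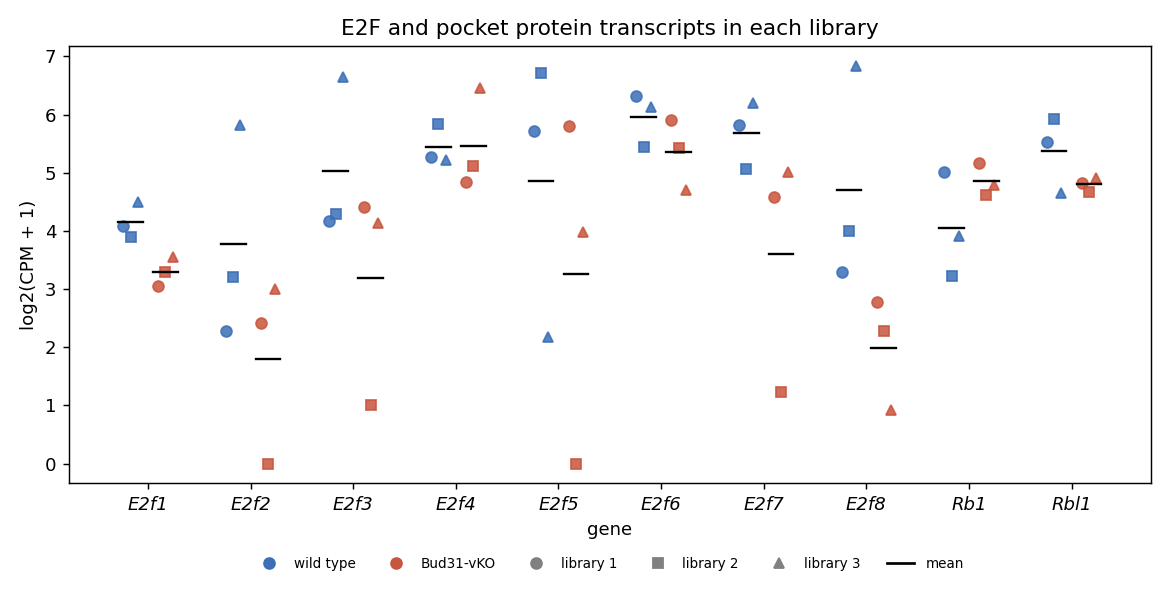
Level of each gene as log2(CPM + 1) on the vertical axis, with 1 point per library (blue wild type, red Bud31-vKO, symbol shape the library number) and a bar at the mean of the 3 points. E2f1, E2f7 and E2f8 are separated by genotype, E2f2, E2f3 and E2f8 are far highest in wild type library 3, and E2f2 and E2f5 are at 0 in Bud31-vKO library 2.

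Positions are in GRCm38 throughout. Among the activators, E2f1 differed with the least scatter. E2f1 (ENSMUSG00000027490; chromosome 2, 154559407 to 154569892, minus strand), whose protein drives entry into S phase and can also trigger apoptosis, measured 15.9, 13.9 and 21.7 CPM in wild type 1 to 3 against 7.31, 8.85 and 10.7 CPM in Bud31-vKO 1 to 3. Each Bud31-vKO library lay below each wild type library, with 100 to 373 reads behind each value. The nearest libraries of the 2 genotypes, Bud31-vKO 3 and wild type 2, had 95% Poisson intervals that overlapped, 9.05 to 12.6 CPM and 12.3 to 15.7 CPM (counting error only). The group means were 17.2 ± 4.05 CPM and 8.96 ± 1.71 CPM (SD, n = 3 each). The log2 fold change was -0.94 ± 1.03 (standard error, SE), and its 95% interval of -3.32 to 1.44 includes no change. The error of a fold change in edgeR draws on the spread of all genes, and the biological coefficient of variation over all genes was 119%.

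E2f2 and E2f3 differed mainly through single libraries. E2f2 (ENSMUSG00000018983; chromosome 4, 136172394 to 136196057, plus strand) was at 3.86, 8.23 and 55.5 CPM in the wild type libraries against 4.31, 0 and 7.02 CPM in those of Bud31-vKO, and the genotypes overlapped. Wild type library 3 held 954 of its reads, and Bud31-vKO library 2 held none, which allows up to 0.214 CPM at a floor of 3 reads. E2f3 (ENSMUSG00000016477; chromosome 13, 29906575 to 29986063, minus strand), transcribed from 2 starts as a long and a short form, was at 16.99, 18.7 and 99.3 CPM in the wild type libraries against 20.4, 0.999 and 16.5 CPM in those of Bud31-vKO. Its 4 other libraries lay between 16.5 and 20.4 CPM whatever the genotype. The log2 fold changes were -2.57 ± 1.96 (SE) for E2f2 and -1.83 ± 1.24 (SE) for E2f3. Without wild type library 3 they were -0.67 and -0.49, and without Bud31-vKO library 2 as well -0.08 and 0.06. In wild type library 3 the stromal markers were also at their highest, 21649.7 CPM, and their part in these values was not tested.

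The canonical repressors overlapped between the genotypes. E2f4 (ENSMUSG00000014859; chromosome 8, 105297663 to 105305370, plus strand), the main E2F of resting cells, measured 37.5, 56.5 and 36.4 CPM in the wild type libraries against 27.6, 33.5 and 86.8 CPM in those of Bud31-vKO. Its highest library, Bud31-vKO 3, and its lowest, Bud31-vKO 1, belonged to the same genotype. The log2 fold change was 0.18 with a 95% interval of -1.29 to 1.65, and it was -0.51 without Bud31-vKO library 3. E2f5 (ENSMUSG00000027552; chromosome 3, 14578641 to 14606309, plus strand), its close relative, was at 51.4, 104 and 3.49 CPM in the wild type libraries against 55.1, 0 and 14.7 CPM in those of Bud31-vKO. Its lowest values, from 60 reads in wild type 3 and 0 reads in Bud31-vKO 2, were in the pair of libraries with fewest detected genes, and the log2 fold change was -1.19 ± 1.82 (SE). Single libraries moved it between -0.25 (without wild type 2) and -2.84 (without Bud31-vKO 1), and limma-voom gave -3.10. An exon of E2f5 overlaps 1810022K09Rik on the opposite strand, itself counted at 27.2 to 69.0 CPM, and whether strand was used in counting is not given in the sources used here.

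E2f6 varied little for this family, with a 3.14-fold range over the 6 libraries that only E2f1 (2.97-fold) and Rbl1 (2.48-fold) undercut. E2f6 (ENSMUSG00000057469; chromosome 12, 16810963 to 16839742, plus strand), which in somatic cells helps to keep germ line genes silent, measured 78.7, 42.5 and 68.9 CPM in the wild type libraries against 59.1, 42.2 and 25.1 CPM in those of Bud31-vKO. The genotypes overlapped, and the log2 fold change was -0.59 ± 0.55 (SE) with a 95% interval of -1.87 to 0.69. It was -0.33 without Bud31-vKO library 3 and -0.89 without Bud31-vKO library 1.

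Both atypical repressors had all 3 Bud31-vKO values below the lowest wild type value. E2f7 (ENSMUSG00000020185; chromosome 10, 110745439 to 110787384, plus strand) measured 55.6, 32.3 and 72.2 CPM in the wild type libraries against 22.95, 1.36 and 31.3 CPM in those of Bud31-vKO. The closest values of the 2 genotypes, 32.3 and 31.3 CPM, differed by little, and with RLE scaling in place of TMM they overlapped. Its log2 fold change was -1.53 ± 1.05 (SE), -0.97 without Bud31-vKO library 2, and -0.69 without that library and wild type library 3. E2f8 (ENSMUSG00000046179; chromosome 7, 48866429 to 48881596, minus strand), which acts together with E2f7 and is itself turned on by the activators, measured 8.82, 14.97 and 114 CPM in the wild type libraries against 5.85, 3.85 and 0.887 CPM in those of Bud31-vKO. Wild type library 3 stood far above the other 5, and Bud31-vKO library 3 rested on 12 reads. The means were 45.8 ± 58.8 CPM and 3.53 ± 2.50 CPM (SD, n = 3 each). E2f8 had a log2 fold change of -3.69 ± 1.35 (SE), an unadjusted p of 0.0259 and an adjusted p of 0.9997 by edgeR. By DESeq2 the adjusted p was 0.263, the lowest over the alternatives tried. Without wild type library 3 the log2 fold change was -1.73. Exons of E2f8 and E2f7 overlap the antisense genes Gm2788 and 1700020G17Rik, which were counted at no more than 2.77 and 0.29 CPM in any library.

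The pocket proteins showed differences in opposite directions, both within the spread. Rb1 (ENSMUSG00000022105; chromosome 14, 73183673 to 73325822, minus strand), the retinoblastoma tumour suppressor, measured 31.1, 8.34 and 14.03 CPM in the wild type libraries against 35.01, 23.5 and 26.7 CPM in those of Bud31-vKO. Wild type libraries 2 and 3 were the lowest, and wild type library 1 lay among the Bud31-vKO values, 23.5 to 35.0 CPM. Its log2 fold change was 0.67 ± 0.86 (SE) with a 95% interval of -1.32 to 2.67, 1.34 without wild type library 1 and 0.32 without wild type library 2. Exons of Rb1 overlap Lpar6 and Rcbtb2 on the opposite strand, counted at 6.78 to 25.8 and 12.6 to 96.9 CPM. Rbl1 (ENSMUSG00000027641; chromosome 2, 157145893 to 157204534, minus strand), which restrains E2F4 target genes as p107 and is itself an E2F target, measured 44.99, 60.1 and 24.2 CPM in the wild type libraries against 27.3, 24.3 and 29.2 CPM in those of Bud31-vKO. Wild type library 3 lay just below all 3 Bud31-vKO libraries, and without it the genotypes did not overlap. The log2 fold change was -0.68 ± 0.64 (SE), -0.94 without that library and -0.37 without wild type library 2. Among the 10 family genes, Rbl1 had the closest Bud31-vKO values, with a coefficient of variation of 9.11%.

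**Figure D2:**
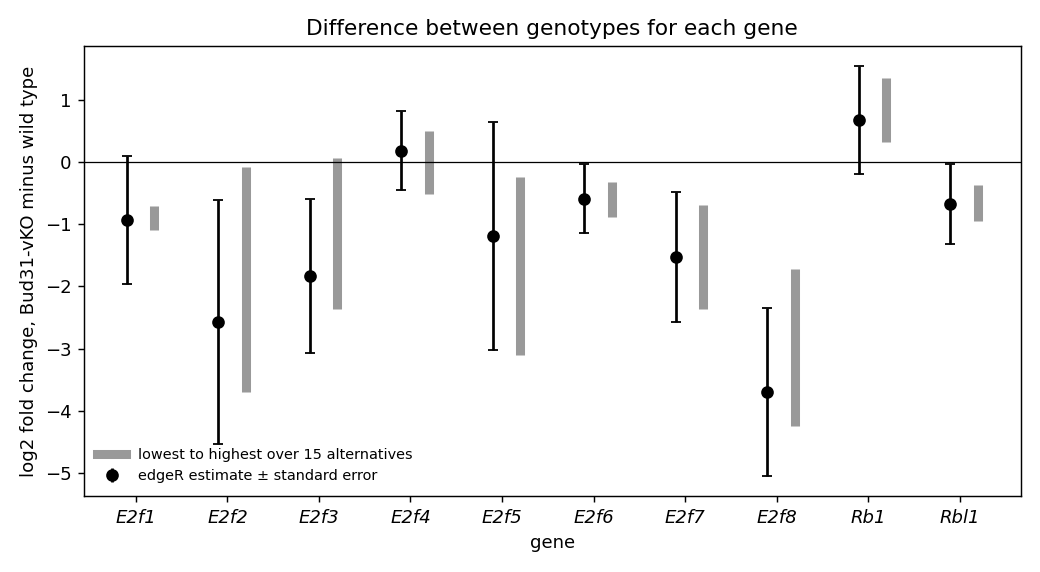
Log2 fold change of each gene, Bud31-vKO minus wild type. Black points are edgeR estimates with standard errors derived from its F statistic, and grey bars span the lowest to the highest value over 15 alternatives. The bars of E2f1, E2f2, E2f5, E2f6, E2f7, E2f8 and Rbl1 stay below 0 and that of Rb1 above 0, while those of E2f3 and E2f4 cross it.

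Levels of different genes were set side by side as CPM per kilobase of the longest transcript. In wild type E2f5 stood at 29.8 ± 28.4, E2f4 at 21.8 ± 5.68 and E2f6 at 21.01 ± 6.21 (SD, n = 3 each), and these 3 led in Bud31-vKO as well, though E2f6 was then above E2f5, at 13.1 ± 16.04, 24.7 ± 16.4 and 13.97 ± 5.64 (SD, n = 3 each). Over the 6 libraries the mean ran from 23.3 for E2f4, 21.5 for E2f5 and 17.5 for E2f6 down to 7.20 for Rbl1, 6.68 for E2f8, 6.57 for E2f7, 5.65 for E2f3, 4.97 for Rb1, 4.74 for E2f1 and 2.78 for E2f2. E2f6 was above Rbl1, its lower neighbour, in 6 of 6 libraries with a gap of 10.3 against SDs of 6.56 and 2.98. Every other gap between neighbours was smaller than the SD of either gene, except that between E2f1 and E2f2, 1.97, which was above the SD of E2f1, 1.92, and below that of E2f2, 4.42. The leading gene was E2f5 in wild type libraries 1 and 2 and Bud31-vKO library 1, E2f4 in Bud31-vKO libraries 2 and 3, and E2f8 in wild type library 3. E2f5 was last of the 10 in wild type library 3 and tied last with E2f2 in Bud31-vKO library 2.

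By role, the share of the activators was alike in 5 libraries, while the other classes varied more. The activators held 7.48% to 9.96% of the summed level per kilobase in 5 libraries and 29.2% in wild type library 3. The canonical repressors held 36.9% to 64.1% in those 5 libraries and 15.1% in wild type library 3. E2f6 held 9.61% to 30.7% and the pocket proteins 5.96% to 22.1% over the 6 libraries, each with overlap between genotypes. The atypical E2f7 and E2f8 held 11.2%, 7.34% and 32.8% in wild type and 6.36%, 2.83% and 6.89% in Bud31-vKO, the one class whose share did not overlap between genotypes. In summed CPM per kilobase the activators measured 9.92, 10.5 and 39.1 in wild type against 7.56, 3.41 and 8.61 in Bud31-vKO, and the atypical pair 12.6, 9.96 and 44.0 against 5.78, 1.29 and 5.96.

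**Figure D3:**
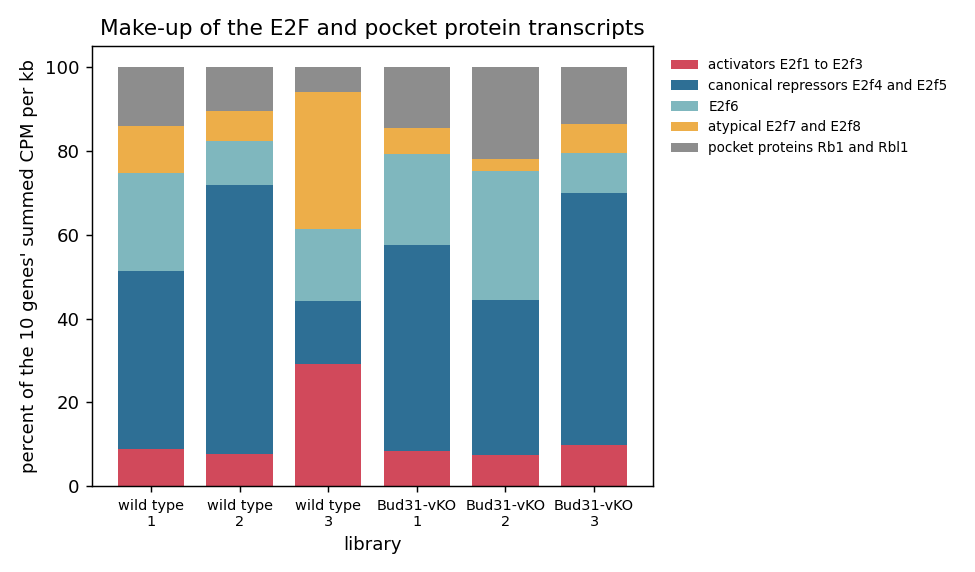
Share of each class in the 10 genes' summed CPM per kilobase, in percent, with 1 stacked bar per library. Wild type library 3 has a larger part of activators (29.2%) and atypical factors (32.8%) than any other library.

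Some of the genes varied together. Over the 6 libraries Pearson's r of log2 CPM was 0.99 between E2f2 and E2f3, 0.94 between E2f3 and E2f7 and 0.93 between E2f2 and E2f7. These values describe 6 libraries that share their depth and sorting, and they lean on wild type library 3 and Bud31-vKO library 2, where these genes were highest and lowest. E2f4 and E2f6 ran against each other with r of -0.78. Rb1 had a negative r with 8 of the 9 other genes, from only -0.09 with E2f5 to -0.54 with E2f8, and these were not tested. Among 7160 or 7161 genes whose log2 CPM averaged 4 or more, the closest to E2f6 were Mgmt, a DNA repair gene, and Foxn2, a forkhead factor, with r of 0.986 and 0.981. The closest to E2f4 were the proteoglycan genes Bgn and Gpc6 (0.959 and 0.958), and to E2f5 Ccdc127 and Otud4, with r near 0.998 for both. These genes were picked for the highest r among so many over only 6 libraries, so their likeness follows from the choice and was not tested. Bgn was at 423, 577 and 359 CPM in the wild type libraries against 343, 406 and 655 CPM in those of Bud31-vKO.

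**Figure D4:**
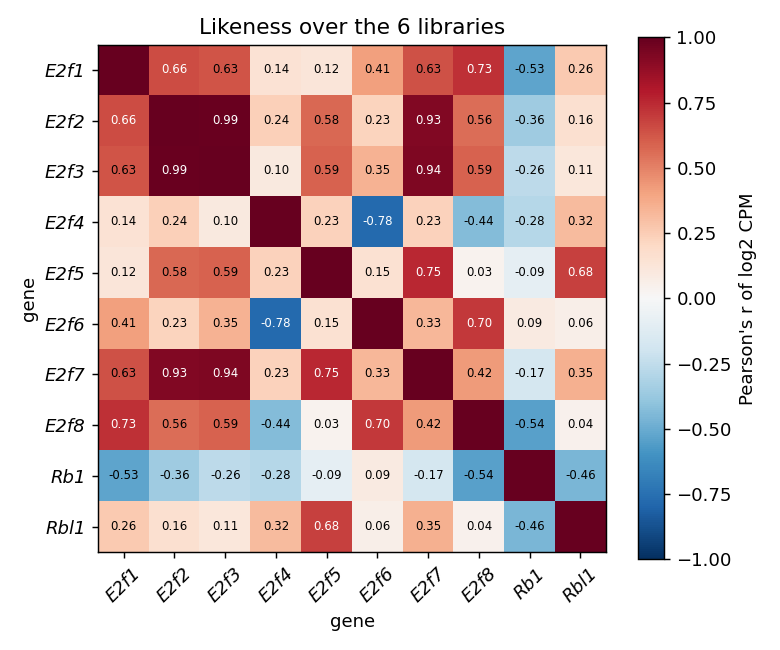
Pearson's r of log2 CPM over the 6 libraries for each pair of the 10 genes (red positive, blue negative). E2f2, E2f3 and E2f7 form a block at 0.93 to 0.99, and the pair E2f4 and E2f6 has the lowest value, -0.78.

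The partners of the family are the DP proteins, with which E2F1 to E2F6 bind DNA, and Rbl2 (p130), the pocket protein of resting cells. Tfdp1 measured 237, 180.4 and 355 CPM in the wild type libraries against 163, 102 and 176 CPM in those of Bud31-vKO, without overlap, a log2 fold change of -0.81 ± 0.38 (SE) and an unadjusted p of 0.0657 by edgeR. It was the 1 of these 3 genes lower without overlap, against 6.39% of all genes tested. Tfdp2 was at 137 ± 39.2 CPM and 118 ± 42.3 CPM and Rbl2 at 12.03 ± 10.6 CPM and 12.4 ± 4.26 CPM (SD, n = 3 each), both with overlap. By edgeR 0 genes of any list of surrounding genes passed the adjusted threshold. At an unadjusted p under 0.05 by edgeR there were 6 of the 28 S phase targets and 0 to 2 genes of each other list. Over all 15240 genes tested there were 443. DESeq2 called Cdk2 and Cdca7, beside 0.314% of all the genes it adjusted.

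Upstream of the pocket proteins, 7 of 9 tested cyclins and kinases that phosphorylate them lay below 0 in log2 fold change (median -0.50). Ccna1 had no read in any library. Cdk2, the kinase that completes RB phosphorylation with cyclin E, had the lowest log2 fold change of the list, -2.26 ± 0.38 (SE), and it was the 1 gene of the list that DESeq2 called. Pmel, on the other strand, shares exon bases with Cdk2. Ccne1, which encodes cyclin E1 and is an E2F target, measured 75.1, 69.1 and 231 CPM in the wild type libraries against 49.3, 0 and 38.8 CPM in those of Bud31-vKO, with no overlap and a log2 fold change of -2.09 ± 1.54 (SE). Cdk2 and Ccne1 were the 2 of 9 tested genes lower without overlap, against 6.39% of all genes tested. The median of this list was -0.06 without wild type library 3 and Bud31-vKO library 2. Of 7 CDK inhibitors 3 were below 0 and 4 above, with a median of 0.13 (the same with Cdkn2a at its bound) that ran from -0.17, without wild type library 3 and Bud31-vKO library 2, to 1.11 with a filter of 5 CPM in 3 libraries. None of the 7 was higher in Bud31-vKO without overlap, against 4.76% of all genes tested. Lower without overlap were 2, Cdkn2a and Cdkn2b, against 6.39% of all genes tested. The mean of log2(CPM + 1) over the list overlapped, at 3.41, 3.03 and 3.001 in wild type and 3.09, 3.56 and 2.88 in Bud31-vKO. Its summed level was higher in Bud31-vKO without overlap, at 101, 77.6 and 90.4 CPM in wild type against 116, 172 and 139 CPM. Cdkn2a, the locus of the INK4A and ARF proteins, had 12, 44 and 28 reads in wild type and none in Bud31-vKO, at least 7.53-fold lower against a floor of 3 reads per library. Cdkn2b, which encodes the inhibitor p15, measured 5.54, 7.95 and 9.72 CPM in the wild type libraries against 0.512, 4.00 and 0.370 CPM in those of Bud31-vKO.

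Downstream, the 28 E2F target genes of S phase mostly had lower fitted levels in Bud31-vKO. Of these, 26 lay below 0 in log2 fold change. The median was -0.63, and it lay between -0.91 and -0.41 over the alternatives, while 2, Orc1 and Cdc25a, were above 0 at 0.58 and 0.60. The genotypes did not overlap for 10 of the 28, lower in Bud31-vKO, against 6.39% of all genes tested, and for 0 in the other direction. With RLE scaling the count was 6. The mean of log2(CPM + 1) over the list was 6.99, 6.95 and 7.62 in wild type and 5.90, 6.55 and 6.58 in Bud31-vKO. Its summed level overlapped, at 4600.1, 5831 and 9229.97 CPM in the wild type libraries against 2288, 5504 and 4110.5 CPM in those of Bud31-vKO. The direction of this list was known from earlier results on these libraries, so it is not independent evidence. Summed germ cell markers (lower) and summed lymphocyte markers (higher) differed between the genotypes without overlap, as given above. Their part in these differences was not tested.

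Of the targets without overlap, Cdca7, Tyms and Rrm1 had the smallest p-values by edgeR. Cdca7, a MYC and E2F target that recruits a chromatin remodeller, measured 203, 341 and 355 CPM in the wild type libraries against 72.8, 86.6 and 107 CPM in those of Bud31-vKO, with an unadjusted p of 0.00113 by edgeR, and was the 1 target that DESeq2 called (adjusted p of 0.00952). Tyms, the thymidylate synthase, measured 129, 64.8 and 171 CPM against 42.2, 45.7 and 41.3 CPM, a log2 fold change of -1.50 ± 0.46 (SE). Rrm1, the large subunit of ribonucleotide reductase, measured 409, 469.6 and 1151 CPM against 169.6, 208 and 338 CPM, a log2 fold change of -1.51 ± 0.48 (SE). Wild type library 3 held the highest value of all 3, as it did for E2f1, E2f2, E2f3, E2f7 and E2f8.

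The motif searched above was common in the target list. Of 22 target genes with a promoter window 14 (63.6%) held a motif, beside 2.70% of all genes. Over the genes tested, the 539 with a motif, the 10 family members left out, had a median log2 fold change of -0.18 with 319 below 0, while the 10283 with a window and no motif had a median of 0.01 with 5102 below 0. Groups did not overlap, lower in Bud31-vKO, for 51 of the 539 and 659 of the 10283, and in the other direction for 22 and 517. This list was drawn up after the promoters were read, it includes the target genes above, and no test was made of it.

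Of the complexes around the family, the MuvB core with its MYB and FOXM1 partners had 5 of 8 genes below 0, with a median of -0.20 that moved to -0.62 when Bud31-vKO library 2 was left out and to -0.01 when wild type library 3 was. Of the RB co-repressors 7 of 10 were below 0, with a median of -0.30 that moved to -0.57 when Bud31-vKO library 3 was left out and to -0.18 when wild type library 2 was. Rbbp4 and Rbbp7, histone-binding proteins of several repressor complexes, did not overlap: Rbbp4 was at 201 ± 47.9 CPM against 112 ± 21.3 CPM and Rbbp7 at 889 ± 173 CPM against 476 ± 69.6 CPM (SD, n = 3 each). That is 1 of 8 genes of the MuvB list and 1 of 10 RB co-repressors, against 6.39% of all genes tested that were lower without overlap. Of the E2F6 complex, 7 of 9 tested genes were below 0 with a median of -0.44, and none was without overlap. It moved to -0.02 without Bud31-vKO library 2, where Rnf2 and Yaf2 had no reads.

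The germ line genes that E2F6 helps to silence in somatic cells were abundant here and had lower fitted levels in Bud31-vKO, 5 of 5 below 0 with a median of -0.74. Slc25a31, the germ cell ADP/ATP carrier, measured 1125, 1016 and 901 CPM in the wild type libraries against 609, 610.5 and 610.3 CPM in those of Bud31-vKO, a log2 fold change of -0.73 ± 0.24 (SE) and an unadjusted p of 0.0171 by edgeR. Tuba3a, a testis tubulin, measured 1283, 1496 and 1272 CPM against 374, 909 and 882 CPM, with no overlap, and its reads may be shared with the near-identical Tuba3b. Slc25a31 and Tuba3a were the 2 of 5 genes lower without overlap, against 6.39% of all genes tested. E2f6 itself had a lower mean in Bud31-vKO, as given above. The germ cell markers as a whole were lower too, at the sums given above, and their part in this difference was not tested.

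**Figure D5:**
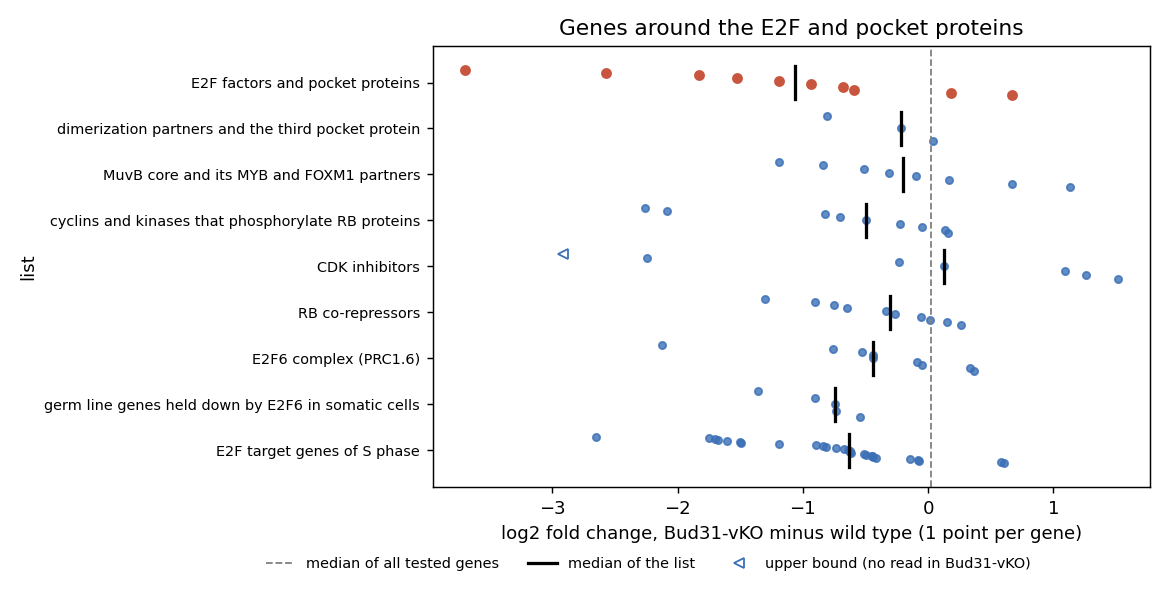
Log2 fold change of each tested gene, Bud31-vKO minus wild type, by list, with 1 point per gene, a black bar at the median of the list and a dashed line at the median of all tested genes (0.02). The open triangle is Cdkn2a, drawn at its bound. The E2F and pocket protein genes (red, median -1.06) and the S phase targets (median -0.63) lie mostly left of the line.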

How the data were processed

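The authors deposited whole-number read counts per Ensembl gene for 6 Smart-Seq2 libraries, with no scaling. The submitters' processing notes list bcl2fastq and mm10. For aligner, counter and strand setting, nothing is given in the sources used here. Symbols, positions, transcript lengths and exon overlaps came from GENCODE M21 (GRCm38, the same assembly), which named 51719 of 51912 genes.

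Genes were filtered with filterByExpr (minimum count 10, minimum total 15), leaving 15240, scaled by TMM and compared with edgeR 4.0.16's quasi-likelihood F test across all genes, Benjamini-Hochberg adjusted at 5%, in R 4.3.3. Log2 CPM used a prior count of 2. Equal library numbers were not treated as pairs.

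The genes and lists were chosen with earlier results of these data known. Named were the 10 genes, Bud31, Rbl2, Tfdp1, Tfdp2, Cdk2, the 3 genes of each list with the smallest p among those without overlap, and the 2 genes most like each of the 3 most abundant members. Other genes named were picked after their values were seen. Results were recomputed with library-size, upper-quartile or RLE scaling, without a filter, with 5 CPM in 3 libraries, and with DESeq2 1.42.0, limma-voom (limma 3.58.1), a replicate block and libraries left out.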

Additional observations from a re-analysis of the deposited data

How the results depend on the processing

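In each of 15 alternatives 0 of the 10 genes were called, and leaving out any 1 library gave 0 to 0 called genes over the whole table. Over all genes the count was 7 with no filter on low counts and 47 with DESeq2 (30 lower, 17 higher), against 0 in the other 13. With the replicate number as a block (replicate block) 0 genes were called. Same-numbered libraries deviated together with r of 0.19, 0.04 and -0.08. Wild type libraries 1 and 2 were closest to the Bud31-vKO library of the same number, and wild type library 3 to Bud31-vKO library 2. The labels state no shared litter or day, and these values cannot show whether there was one. Log2 fold changes kept their direction in 15 of 15 alternatives for E2f1, E2f2, E2f5, E2f6, E2f7, E2f8, Rb1 and Rbl1. That of E2f3 was 0.0597 without wild type library 3 and Bud31-vKO library 2. That of E2f4 was -0.0033 with limma-voom and ran from -0.51 (without Bud31-vKO library 3) to 0.49 when 1 library was left out. The cause was not tested. Ranges were -1.09 to -0.71 for E2f1, -3.69 to -0.08 for E2f2, -3.10 to -0.25 for E2f5, -2.36 to -0.69 for E2f7 and -4.24 to -1.73 for E2f8. The family's median ran from -1.59 to -0.60. The count of family genes lower without overlap was 2 with RLE scaling and 3 to 4 without any 1 library, where 9.7% to 13% of all genes were lower without overlap. It was 4 in the 4 libraries that leave out wild type 3 and Bud31-vKO 2, where the share of all genes was 19.8%. With 2 of the 4 motifs, TTTCCCGC and TTTGGCGC, 3 of 7 genes held a match. Depth limits the precision of E2f8 in Bud31-vKO library 3 (12 reads). The 0 reads of E2f2 and E2f5 in Bud31-vKO library 2 came with a total of 14507038 reads, within the range of the other libraries, and with the fewest genes detected, 12464.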
